A study of Mus musculus with 25 samples.

Results

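Fatty acid synthesis turns citrate into stored fat, and 9 genes of this pathway were followed across 25 mouse mammary arrays: Fasn, Acaca, Acly, Scd1, Elovl6, Thrsp, Dgat2, Srebf1 and Me1. They were chosen by name, and each was read from the probe set with the highest mean over the arrays, so that 9 of 9 were measured among 19937 genes with a symbol of their own. The 10 Lgr5 tumors came from Lgr5-creERT2/PIK3CA H1047R mice of a mixed FVB/C57/BL6 background, and the 10 K8 tumors from K8-creERT2/PIK3CA H1047R mice of a mixed FVB/CD1 background. The 3 Lgr5 glands came from Lgr5-creERT2 control mice and the 2 K8 glands from K8-creERT2 control mice. Tamoxifen at 7 to 8 weeks of age switches on the mutant PI3-kinase subunit in cells that express the driver gene, either the Wnt-pathway receptor Lgr5 or the luminal keratin K8. Line and strain background are confounded and cannot be told apart. Whether each tumor came from its own animal is not in the labels, so p-values reflect the spread among these samples alone, part of which may be technical.

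In the cell, Acly cleaves citrate into acetyl-CoA, Acaca carboxylates it to malonyl-CoA, and Fasn builds palmitate from both with NADPH that malic enzyme (Me1) helps to supply. Elovl6 lengthens palmitate, Scd1 puts a double bond into the chain, and Dgat2 joins fatty acids to diacylglycerol as triglyceride. Thrsp (Spot 14) is a small protein abundant in lipogenic tissues, and Srebf1 encodes the transcription factor SREBP-1, which switches on most of the other genes. In the mammary gland, different cells run this pathway: the fat cells of the fat pad, and the secretory epithelium that makes milk fat. PI3-kinase signalling, through Akt, is a known activator of SREBP-1. A bulk array sums all cells of a piece of tissue, and fewer cells of a type and less RNA per cell cannot be told apart.

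Fat tissue content was therefore followed on each array by the mean of 17 adipocyte genes, such as Adipoq, Plin1 and Lep, none of them a member (17 of 19 listed were measured). Tissue markers contradict what some arrays are labelled as, and groups are called by their labels. The adipocyte mean lay between 12.28 and 12.47 (log2) in Lgr5 tumors 2, 6, 7, 8 and 9, and between 8.98 and 10.56 in the other 5 Lgr5 tumors. In K8 tumors its lowest, median and highest values were 7.36, 8.34 and 10.91, with the highest in K8 tumor 7. It was 7.98, 7.34 and 9.25 in the Lgr5 glands and 7.44 and 8.31 in the K8 glands, although a normal mammary gland is embedded in fat. The mean of 16 luminal epithelial genes was 8.88 to 9.70 in the 5 fat-rich Lgr5 tumors and at least 10.64 in the other 20 arrays. The mean of 14 squamous epithelial genes was 8.72 to 10.55 in the glands, 9.98 in Lgr5 tumor 10 and 9.75 in K8 tumor 9, and at most 8.16 in the other 18 tumors.

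The promoters of Fasn, Thrsp and Srebf1 are shown because the first 2 genes were among those that followed the adipocyte mean and the third was not. Each runs from 250 bases before to 50 bases after the annotated start on the reverse strand of GRCm38.p6 (RefSeq). The Fasn window is chr11:120824498-120824797, the Thrsp window chr7:97417501-97417800, and the Srebf1 window, 1 of 3 listed for the gene, chr11:60210422-60210721. Capitals mark CCAAT (the box bound by NF-Y, a partner of SREBP), GGGCGG (the GC box bound by Sp1) and CATGTG (an E box), on either strand.
Fasn: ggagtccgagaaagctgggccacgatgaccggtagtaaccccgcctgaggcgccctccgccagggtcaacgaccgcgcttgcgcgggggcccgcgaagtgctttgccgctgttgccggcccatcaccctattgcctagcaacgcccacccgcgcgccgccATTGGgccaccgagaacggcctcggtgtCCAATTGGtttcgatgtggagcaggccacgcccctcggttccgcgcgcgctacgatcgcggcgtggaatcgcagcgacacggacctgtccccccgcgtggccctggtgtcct
Thrsp: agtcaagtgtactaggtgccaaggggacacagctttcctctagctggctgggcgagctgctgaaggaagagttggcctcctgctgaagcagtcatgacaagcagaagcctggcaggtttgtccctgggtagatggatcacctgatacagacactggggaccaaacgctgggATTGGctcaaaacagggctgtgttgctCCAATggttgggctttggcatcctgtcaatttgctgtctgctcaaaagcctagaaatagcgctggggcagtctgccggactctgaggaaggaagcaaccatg
Srebf1: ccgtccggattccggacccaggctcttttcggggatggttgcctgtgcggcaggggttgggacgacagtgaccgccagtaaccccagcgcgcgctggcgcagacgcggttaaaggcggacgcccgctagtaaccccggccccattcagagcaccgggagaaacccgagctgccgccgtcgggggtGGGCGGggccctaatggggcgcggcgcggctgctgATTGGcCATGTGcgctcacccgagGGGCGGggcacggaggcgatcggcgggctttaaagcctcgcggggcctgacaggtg
In Fasn, 2 of the 3 CCAAT matches overlap, on opposite strands, at positions -62 and -59 from the start. The table holds 10 promoters of 7 members, and 6 of the 10 held CCAAT (of Acly, Fasn, Me1, Srebf1 and Thrsp), as did 37.4% of all 32851 promoters. GGGCGG was found in 4 of the 10 and 35.7% of all promoters, and CATGTG in 2 of the 10 and 14.2%. The E box CACGTG and the sterol element letters TCACNCCA were in none of the 10, against 7.15% and 4.36% of all promoters. Scd1 and Dgat2 are not in the table. These counts describe letters within the windows only, and other spellings of the sterol element were not searched.

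Within the labelled groups, 8 of the 9 genes rose with the adipocyte mean, and Srebf1 did not pass the test. The slope (log2 change of a gene per log2 unit of the adipocyte mean, from a limma model with the 4 groups) passed the test after Benjamini-Hochberg adjustment for 33.6% of all genes, with 15.6% rising. The median slope was 0.49 over the 9 genes and 0.00 over all genes tested. Dgat2, the last step of triglyceride synthesis, rose most tightly, by 0.75 ± 0.04 (SE; limma adjusted p = 1.1e-10). Fasn rose by 0.59 ± 0.05 (limma adjusted p = 5.45e-08), Acaca by 0.66 ± 0.07, Acly by 0.49 ± 0.07 and Me1 by 0.34 ± 0.06. Thrsp had the steepest slope of the 9 genes, 0.92 ± 0.11, and Elovl6 rose by 0.40 ± 0.08. Scd1 rose by 0.28 ± 0.03, and it was 13.48 to 13.60 in all 5 fat-rich Lgr5 tumors. The slope of Srebf1 was -0.09 ± 0.06 (limma adjusted p = 0.242). In a model without the groups it was -0.09 ± 0.04 and passed as falling (limma adjusted p = 0.0433).

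**Figure D1:**
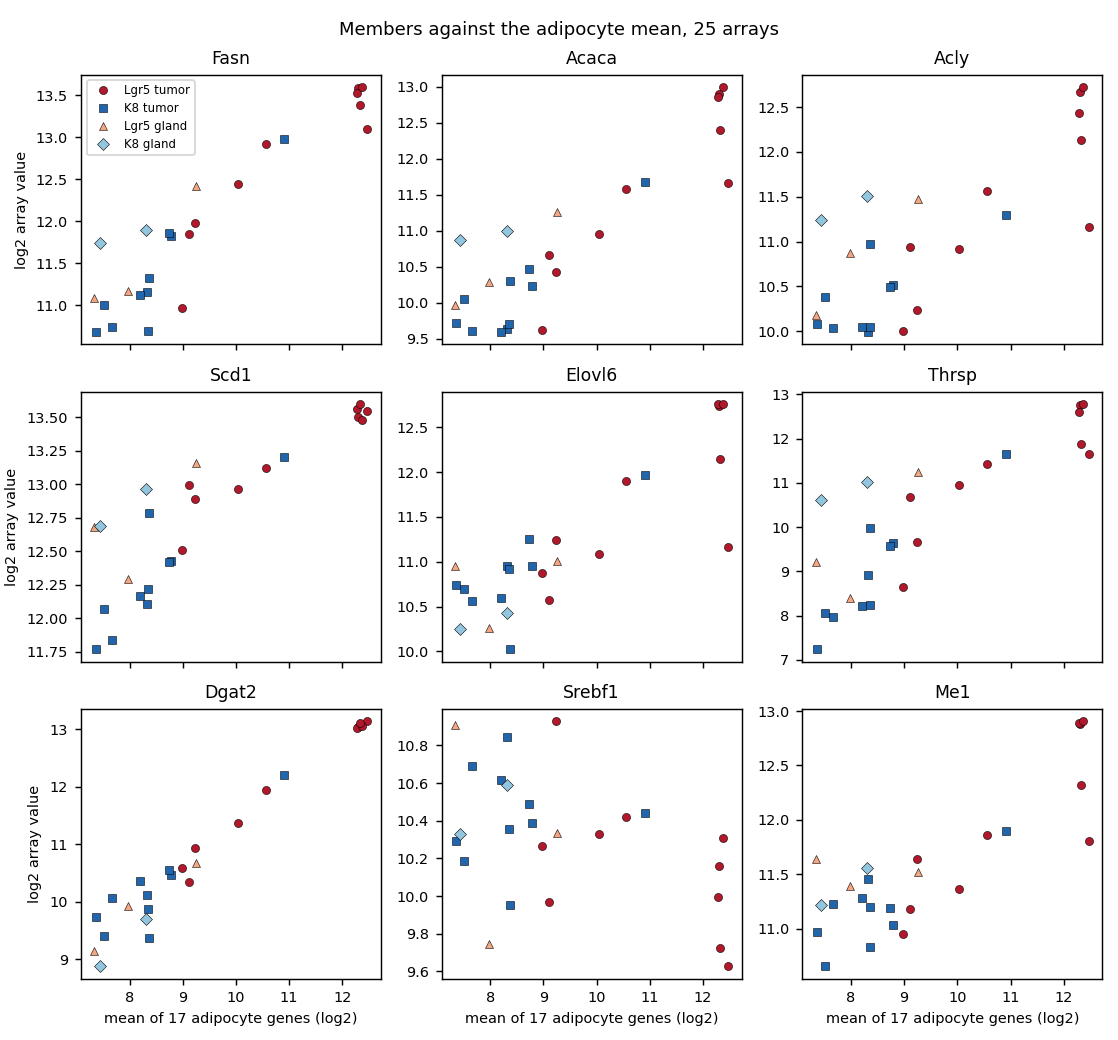
Log2 array value of each gene (vertical axis) against the mean of 17 adipocyte genes (horizontal axis, log2) on 25 arrays, with 1 symbol per labelled group. Dgat2 lies close to a single line, K8 tumors of like adipocyte mean sit below the K8 glands in Fasn, Acaca, Acly and Thrsp, and Srebf1 shows no clear slope.

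The 8 genes also rose when the 5 fat-rich Lgr5 tumors were left out, where 6.61% of all genes passed and 4.13% rose. Their slopes then ran from 0.24 for Me1 to 1.19 for Thrsp, with 0.70 for Fasn and 0.76 for Dgat2, and Srebf1 was at 0.00. Among the 10 K8 tumors alone, 5 of the 9 passed (Fasn 0.66, Acaca 0.56, Scd1 0.39, Thrsp 1.19 and Dgat2 0.73), where 2.78% of all genes passed and 2.28% rose. That count rests on K8 tumor 7, which had the highest adipocyte mean among them and a brown adipocyte mean of 9.17. Its mean of 8 skeletal muscle genes was 10.53, against at most 8.92 in the other K8 tumors. Without K8 tumor 7, 0 of the 9 passed in limma, against 0.0201% of all genes, and at an unadjusted p under 0.05 there were 3 of the 9 and 5.45% of all genes, with slopes of 0.68 for Fasn and 1.51 for Thrsp. Over all 25 arrays, luminal epithelial genes fell with the adipocyte mean (16 of 16, median slope -0.36), and so did cell cycle genes (11 of 11, median -0.41), against 18% of all genes. In the K8 tumors alone, 0 of 16 luminal genes and 4 of 11 cell cycle genes fell (medians -0.07 and -0.22). With the luminal epithelial mean as a second covariate, 6 of the 9 kept a rising slope that passed, where 6.7% of all genes passed. Elovl6 (0.30, limma adjusted p = 0.11) and Me1 (0.26, limma adjusted p = 0.0628) no longer passed there. The part of the cell cycle genes was not tested.

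**Figure D2:**
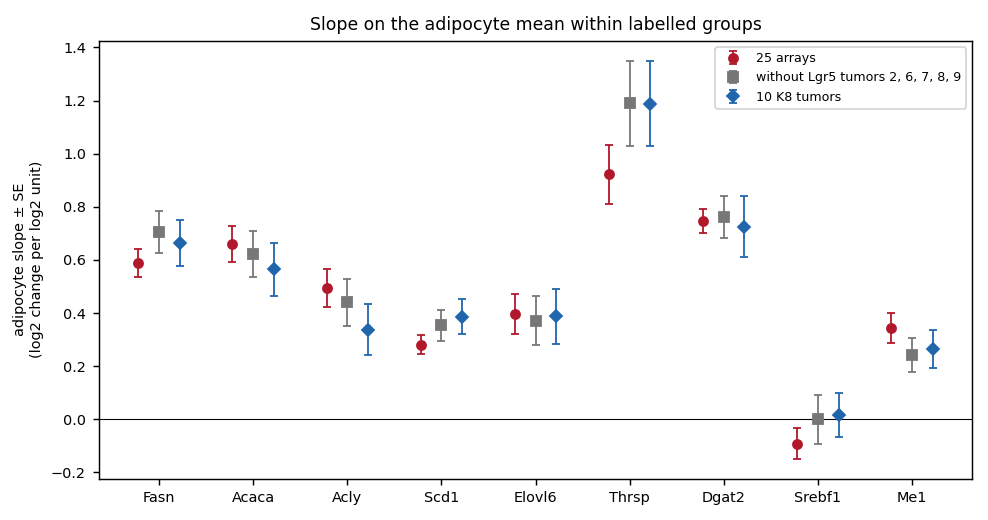
Slope of each gene on the adipocyte mean (log2 change per log2 unit, bars are SE) over 25 arrays, over those left without Lgr5 tumors 2, 6, 7, 8 and 9, and over the 10 K8 tumors. The slopes of 8 genes lie above 0 in all 3 fits, and Srebf1 stays near 0.

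Brown fat markers separated the fat-rich arrays from one another, and milk genes split them the same way. The mean of 10 brown adipocyte genes, which include the uncoupling protein Ucp1, was 10.29, 9.88 and 10.17 in Lgr5 tumors 6, 7 and 8. At nearly the same adipocyte mean, Lgr5 tumors 2 and 9 had brown means of 7.51 and 7.40. Acaca was 12.90, 12.86 and 13.00 in the first 3 of these arrays, and 11.67 and 12.40 in the other two. Elovl6 was 12.74, 12.76 and 12.76 in the arrays rich in brown markers, against 11.16 and 12.14. Both genes were therefore higher in each array rich in brown markers than in either fat-rich array without them. The same held for Fasn, Acly, Thrsp, Me1 and Srebf1. The mean of 9 milk and alveolar genes was 9.88, 9.20 and 9.84 in Lgr5 tumors 6, 7 and 8, against 7.36 and 8.39 in Lgr5 tumors 2 and 9. Brown fat and milk gene content therefore cannot be told apart in these 5 arrays. Dgat2 did not follow that split, with 13.05, 13.02 and 13.06 against 13.15 and 13.12. Neither did Scd1, with 13.51, 13.56 and 13.48 against 13.55 and 13.60. In a limma model with the adipocyte and brown means, added after these values were seen, 0 of the 9 genes passed for the brown mean, while 0.572% of all genes did. At an unadjusted p under 0.05 there were 5 of the 9 and 8.55% of all genes. The slopes were 0.37 ± 0.10 for Elovl6 (limma adjusted p = 0.139) and 0.31 ± 0.09 for Acaca (limma adjusted p = 0.17). With the brown mean beside it, the adipocyte slopes of Elovl6 (0.17, limma adjusted p = 0.22) and Me1 (0.20, limma adjusted p = 0.0672) no longer passed.

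Lgr5 tumors were higher than K8 tumors in 8 of the 9 genes, in a contrast where 21.3% of all genes passed and 9% were higher. For Fasn, the lowest, median and highest values were 10.96, 13.01 and 13.60 in Lgr5 tumors, against 10.68, 11.14 and 12.98 in K8 tumors. The groups overlapped, and the difference was 1.40 ± 0.34 (SE; limma adjusted p = 0.0143), a 2.63-fold higher mean. Thrsp was 8.65, 11.53 and 12.78 in Lgr5 tumors, against 7.24, 8.57 and 11.66 in K8 tumors, and differed by 2.36 ± 0.57 (limma adjusted p = 0.014). The 5 fat-rich Lgr5 tumors held the 5 highest Fasn values, followed by K8 tumor 7. Dgat2 was 10.35, 12.48 and 13.15 in Lgr5 tumors, against 9.37, 10.09 and 12.20 in K8 tumors, and differed by 1.84 ± 0.42 (limma adjusted p = 0.0128). The differences of Acaca, Acly, Scd1, Elovl6 and Me1 were 1.51 ± 0.39, 1.09 ± 0.32, 0.92 ± 0.17, 0.86 ± 0.28 and 0.81 ± 0.23, and that of Elovl6 lost its call without any 1 of 10 arrays (limma adjusted p up to 0.078).

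Srebf1, the regulator, was the exception. It was 9.63, 10.21 and 10.93 in Lgr5 tumors, against 9.95, 10.42 and 10.84 in K8 tumors, a difference of -0.25 ± 0.15 (limma adjusted p = 0.243). With array weights Srebf1 passed as lower in Lgr5 tumors, at -0.38 ± 0.14 (limma adjusted p = 0.0311). The relative of Srebf1, Srebf2, which directs cholesterol synthesis, was lower in Lgr5 tumors by -0.47 ± 0.14 (limma adjusted p = 0.0224).

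**Figure D3:**
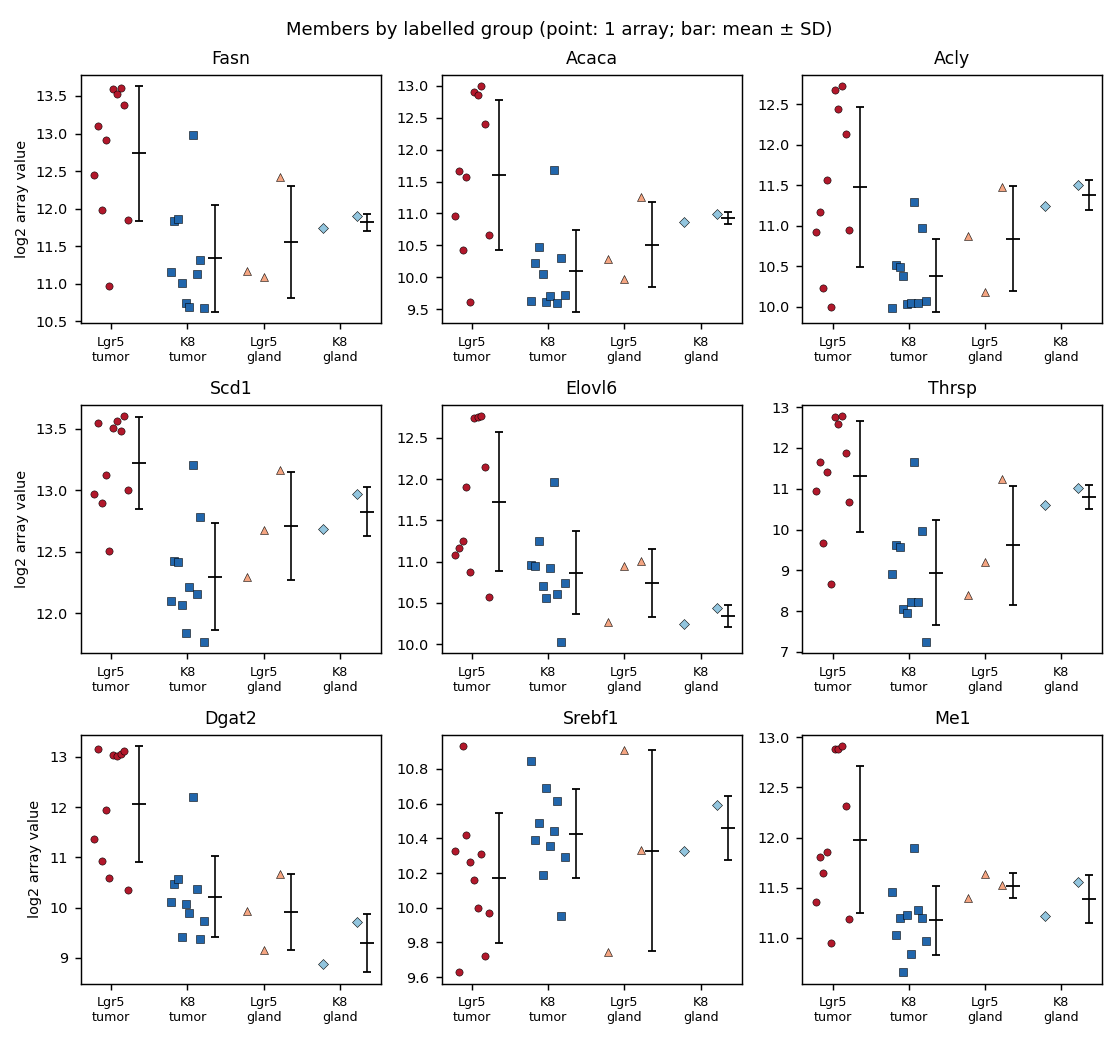
Log2 array value of each gene in Lgr5 tumors (n = 10), K8 tumors (n = 10), Lgr5 glands (n = 3) and K8 glands (n = 2). Points are arrays and bars show the mean ± SD; the Lgr5 tumor mean is above the K8 tumor mean in all genes but Srebf1, and K8 tumor 7 is the highest K8 tumor in 8 of the 9.

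At equal adipocyte mean the difference between the tumors of the lines did not pass the test. With the adipocyte mean as a covariate, 0 of the 9 genes passed, as did 0% of all genes (532 reached an unadjusted p under 0.05 by limma, none of them a member). Fasn then differed by -0.10, Acaca by -0.17, Dgat2 by -0.06, Thrsp by 0.01 and Scd1 by 0.20. Without Lgr5 tumors 2, 6, 7, 8 and 9 and with no covariate, 0 of the 9 passed as well, with 0.69 for Fasn (limma adjusted p = 0.625) and 1.33 for Thrsp (limma adjusted p = 0.607). The lowest adipocyte mean of the Lgr5 tumors, 8.98, lay above the K8 tumor median of 8.34, so the covariate and the line overlap only in part.

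Against the glands of their line, the Lgr5 tumors were higher in 1 of the 9 genes, Dgat2, where 15.9% of all genes passed and 5.28% were higher. Dgat2 was 10.35, 12.48 and 13.15 (lowest, median and highest) in Lgr5 tumors, against 9.93, 9.15 and 10.67 in the Lgr5 glands, a difference of 2.14 ± 0.61 (SE; limma adjusted p = 0.0246). Leaving out any 1 of the 3 glands ended that call (limma adjusted p up to 0.114). Fasn differed by 1.18 ± 0.50 (limma adjusted p = 0.109) and Thrsp by 1.69 ± 0.83, both in the direction of the fatter group. At equal adipocyte mean the signs turned: Thrsp was at -0.88, Acly at -0.74, Acaca at -0.73 and Fasn at -0.46, with Dgat2 at 0.07, and 0 of the 9 genes passed (2 at an unadjusted p under 0.05 by limma, against 2932 of all genes).

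K8 tumors and K8 glands had adipocyte means of 8.42 ± 1.00 and 7.87 ± 0.62 (SD, n = 10 and 2), the closest of the tumor and gland pairs, and here another set of genes stood apart. As measured, 0 of the 9 genes passed in limma, 0 reached an unadjusted p under 0.05, and 9.1% of all genes passed. At equal adipocyte mean, 5 of the 9 were lower in K8 tumors, Thrsp, Acly, Acaca, Fasn and Scd1, where 14.9% of all genes passed and 8.27% were lower. Thrsp was 7.24, 8.57 and 11.66 in K8 tumors, against 10.60 and 11.01 in the K8 glands. The difference at equal adipocyte mean was -2.36 ± 0.49 (SE; limma adjusted p = 0.0103), a level 5.15-fold higher in the glands. K8 tumor 4, with an adipocyte mean of 7.51, had Thrsp at 8.05, and K8 gland 1, with an adipocyte mean of 7.44, had it at 10.60. K8 tumor 1 had an adipocyte mean of 8.32 and Thrsp at 8.91, while K8 gland 2 had an adipocyte mean of 8.31 and Thrsp at 11.01. Only K8 tumor 7, with an adipocyte mean of 10.91, exceeded the glands in Thrsp.

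Acly was 9.99, 10.23 and 11.30 in K8 tumors, against 11.24 and 11.51 in the K8 glands, and differed by -1.26 ± 0.32 at equal adipocyte mean (limma adjusted p = 0.0154). Acaca was 9.59, 9.88 and 11.68 in K8 tumors, against 10.87 and 10.99 in the K8 glands, and differed by -1.20 ± 0.29 (limma adjusted p = 0.0144). In Acaca, 9 of the 10 K8 tumors lay below both glands, and K8 tumor 7 above them. Fasn differed by -0.80 ± 0.23 (limma adjusted p = 0.0262) and Scd1 by -0.68 ± 0.15 (limma adjusted p = 0.0106). Elovl6 (0.31, limma adjusted p = 0.606) and Dgat2 (0.51 ± 0.20, limma adjusted p = 0.0837) had values on the other side of 0, and Me1 (-0.40) and Srebf1 (0.02) did not pass. Dgat2 was 9.37, 10.09 and 12.20 in K8 tumors, against 8.88 and 9.71 in the K8 glands. In some other settings it passed as higher in K8 tumors at equal adipocyte mean, such as with array weights (0.60, limma adjusted p = 0.00176).

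**Figure D4:**
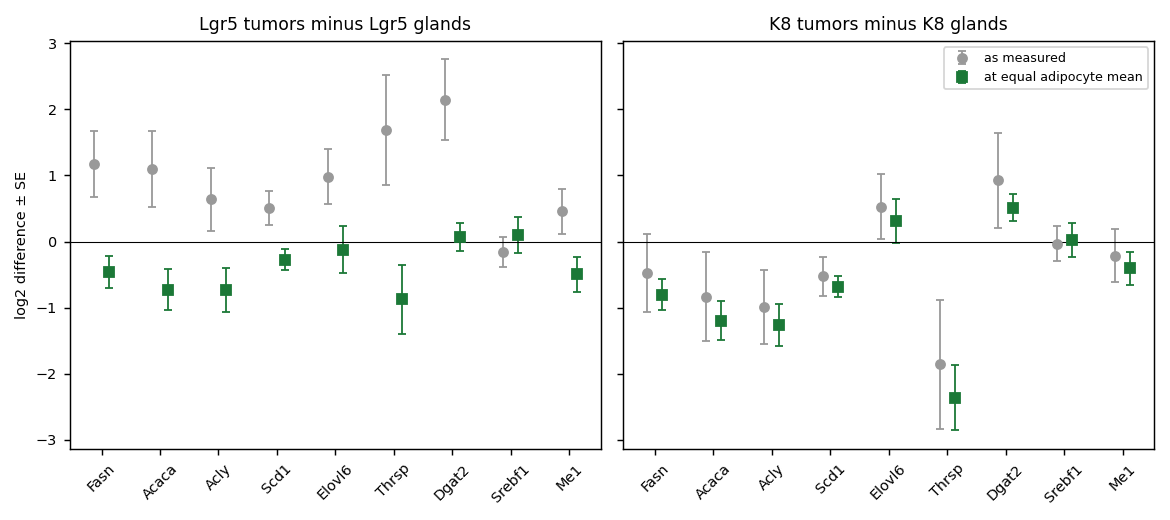
Log2 difference of tumors minus glands for each gene and line, as measured and at equal adipocyte mean (bars are SE). In the K8 line, Thrsp, Acly, Acaca, Fasn and Scd1 lie between -2.36 and -0.68 at equal adipocyte mean, and in the Lgr5 line the positive differences shrink or turn.

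The gland difference rests on 2 K8 glands. Without either one, which leaves 1 gland taken to vary like the other groups, 0 of the 9 passed, against 45 of the 19937 genes without gland 1 and 93 without gland 2. The differences kept their direction, at -2.17 and -2.57 for Thrsp, -1.18 and -1.35 for Acly, -0.97 and -1.43 for Acaca, -0.63 and -0.98 for Fasn, and -0.70 and -0.66 for Scd1 (limma adjusted p from 0.0762 to 0.288). Markers of other cell types moved with the contrast. The mean of 9 milk and alveolar genes was 8.78, 9.99 and 11.87 (lowest, median and highest) in K8 tumors, against 11.74 and 12.47 in the K8 glands. The squamous mean was 9.75 in K8 tumor 9 and at most 6.88 in the other 9 K8 tumors, against 9.98 and 10.32 in the K8 glands, and 12 of 14 squamous genes were lower in K8 tumors at equal adipocyte mean. In the same fit, 4 of 10 basal epithelial genes (median 0.99) and 5 of 8 endothelial genes (median 0.98) were higher in K8 tumors, where 14.9% of all genes passed in either direction. The cell cycle mean was 9.95 and 9.67 in the K8 glands, against at most 9.44 in K8 tumors. Of 11 cell cycle genes, 2 were lower in K8 tumors in that fit, as were 8.27% of all genes. The part of the basal, endothelial and cell cycle genes in the result was not tested. With the milk mean as a second covariate 0 of the 9 passed (Thrsp -1.46, limma adjusted p = 0.104), as did 0.0702% of all genes, and with the squamous mean 0 of the 9 and 0% of all genes did (Thrsp -1.39, limma adjusted p = 0.555). K8 tumor 9, high in both, had Thrsp at 9.97, Acly at 10.97 and Scd1 at 12.79, each the highest K8 tumor value but for K8 tumor 7. Its Fasn (11.32) and Acaca (10.30) lay below those of K8 tumor 3 (11.86 and 10.47).

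Thrsp was also the 1 gene of the 9 that rose with the milk mean within groups at equal adipocyte mean (0.50 ± 0.09, limma adjusted p = 0.0187; 2.07% of all genes passed, 0.712% rising), in a fit added after the data were seen. Fasn had a slope of 0.20 ± 0.05 (limma adjusted p = 0.0513). The call for Thrsp was lost without Lgr5 tumor 2 or without K8 tumor 9 (limma adjusted p up to 0.06), and without K8 tumor 9 and Lgr5 tumor 10 together (0.42, limma adjusted p = 0.0941). Without those 2 and the 5 fat-rich Lgr5 tumors its slope was 0.26 ± 0.18 (limma adjusted p = 0.999). For the luminal epithelial mean, in the same kind of fit, 0 of the 9 genes passed in limma, while 18.6% of all genes did, and at an unadjusted p under 0.05 there were 3 of the 9 and 30.4% of all genes.

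In the Lgr5 line, 4 of these 5 genes were lower at equal adipocyte mean once 7 tumors whose markers stood apart were set aside. The Lgr5 glands, with squamous means of 10.55, 8.72 and 10.04, were kept, while the remaining Lgr5 tumors had 6.09 to 8.16. Squamous content and the tumor and gland labels therefore cannot be told apart in that fit. With the squamous mean as a second covariate over all arrays, the 4 genes did not pass (Thrsp -0.17, Acly -0.37, Acaca -0.56 and Scd1 -0.04). Without Lgr5 tumors 2, 6, 7, 8, 9 and 10 and K8 tumor 9, 4 of the 9 were lower in the remaining 4 Lgr5 tumors than in the 3 Lgr5 glands, where 18.8% of all genes passed and 10.2% were lower. These were Thrsp (-1.32, limma adjusted p = 0.0332), Acly (-0.86, limma adjusted p = 0.0185), Acaca (-0.83, limma adjusted p = 0.046) and Scd1 (-0.40, limma adjusted p = 0.0465). Lgr5 tumor 3 and Lgr5 gland 3 had adipocyte means of 9.24 and 9.25, with Thrsp at 9.67 in the tumor and 11.23 in the gland. Lgr5 gland 3 was the highest Lgr5 gland for Thrsp, and glands 1 and 2 were at 8.40 and 9.21 with adipocyte means of 7.98 and 7.34. The 4 calls fell to 2 when gland 1 was also left out, 1 without gland 2 and 0 without gland 3, where 12.4%, 22.7% and 9.02% of all genes passed. Over all arrays, the Thrsp difference at equal adipocyte mean was -0.45 without gland 3, against -0.88 with it. Whether the tumor-gland differences themselves differ between lines was tested directly. With the adipocyte mean as a covariate, 0 of the 9 and 0% of all genes passed in limma (1 of the 9 and 309 genes at an unadjusted p under 0.05), with 1.49 ± 0.69 for Thrsp. Without the covariate, again 0 of the 9 and 0% of all genes passed in limma (5 of the 9 and 883 genes at an unadjusted p under 0.05), with 3.55 ± 1.29 for Thrsp.

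Relatives of the members behaved differently from gene to gene. Acacb, the acetyl-CoA carboxylase isoform tied to mitochondria, rose with the adipocyte mean by 0.79 ± 0.11 and was higher in Lgr5 tumors than in K8 tumors by 1.65 ± 0.50 (limma adjusted p = 0.0257). Dgat1, the other diacylglycerol acyltransferase, rose by 0.52 ± 0.05. Scd2, a desaturase paralog, had a slope of -0.02 ± 0.04 (limma adjusted p = 0.731), yet it was lower in K8 tumors than in K8 glands by -0.70 ± 0.17 as measured (limma adjusted p = 0.0182). Scd3 (-0.05), Scd4 (-0.02), Me2 (0.02) and Me3 (-0.06) did not pass for the slope. Elovl5 (0.13, limma adjusted p = 0.0245) and Mid1ip1 (0.12, limma adjusted p = 0.0348), the partner of Thrsp, rose slightly.

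**Figure D5:**
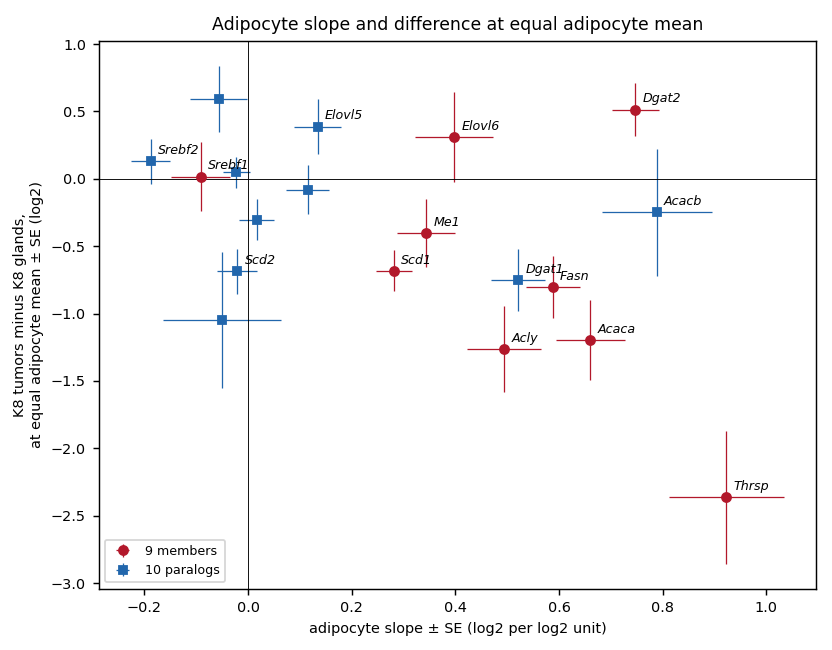
Adipocyte slope (horizontal axis, log2 per log2 unit) against the difference of K8 tumors minus K8 glands at equal adipocyte mean (vertical axis, log2), bars SE, for the 9 genes and 10 paralogs. Fasn, Acaca, Acly and Thrsp have a positive slope and a negative difference, Dgat2 a positive slope only, and Scd2 a negative difference with a slope near 0.

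Of 23 further genes of fatty acid synthesis, 13 rose and 4 fell with the adipocyte mean, against 15.6% and 18% of all genes. The citrate carrier Slc25a1 (0.54 ± 0.04) and the acetyl-CoA synthetase Acss2 (0.82 ± 0.06) rose most clearly. At equal adipocyte mean, 4 of the 23 were lower in K8 tumors than in K8 glands, all named after their values were seen except Acss2 (-1.05) and Scd2 (-0.69). Tecr, a reductase of chain elongation, was at -0.35. Olah, the thioesterase that releases the medium-chain fatty acids of milk from Fasn, was 5.14 to 6.98 in K8 tumors, against 6.78 and 8.13 in the K8 glands. Its K8 tumor mean of 5.48 lay below every array's median, and with no detection calls no size of change is given for it. In triglyceride assembly 9 of 13 genes rose with the adipocyte mean, Agpat2 by 0.70 ± 0.05 and Lpin1 by 0.71 ± 0.06, and 2 fell. At equal adipocyte mean Gpd1 (-1.24, limma adjusted p = 0.024), which makes glycerol phosphate, and Dgat1 (-0.75, limma adjusted p = 0.0341) were lower in K8 tumors.

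For NADPH supply, 4 of 6 genes rose with the adipocyte mean, against 15.6% of all genes. Pgd (-0.83) and Taldo1 (-0.55) of the pentose phosphate pathway were lower in K8 tumors at equal adipocyte mean. Of the cholesterol synthesis genes, 3 of 10 rose and 1 fell with the adipocyte mean, where 33.6% of all genes passed, and 5 of 10 were lower in K8 tumors at equal adipocyte mean (8.27% of all genes), among them Lss (-0.85, limma adjusted p = 0.0142). Fatty acid oxidation genes rose in 6 of 7 cases, against 15.6% of all genes, Acadm by 0.44 ± 0.04. Among 15 regulators, 5 rose and 3 fell, against 15.6% and 18% of all genes: Mlxipl, which encodes the glucose-responsive factor ChREBP, rose by 0.75 ± 0.06, Nr1h3 (LXR alpha) by 0.54 ± 0.05, and Insig1, a sterol-sensing anchor and known SREBP target, by 0.66 ± 0.06. Akt2 rose by 0.29 ± 0.03 and Akt1 fell by 0.10 on the log2 scale, while Srebf2 fell by 0.19. Sebocyte genes, of another lipid-making cell type of skin, rose in 1 of 8 cases (Mc5r), against 15.6% of all genes. Their mean was 5.75 to 7.61 on all arrays.

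By pattern over the 25 arrays, the genes most like each member were ranked by Pearson correlation, as a description. Gpd1 was the closest to Fasn (r = 0.98) and to Thrsp (r = 0.96), and Acss2 to Acaca (r = 0.97). Acly was closest to Pdha1, Dlat and Pdhb (r = 0.94 to 0.95), subunits of the complex that makes mitochondrial acetyl-CoA. Dgat2 was closest to the carboxylesterase Ces1d and the fat cell glycerol channel Aqp7 (both r = 0.98). Srebf1 had other companions, with Lurap1 first (r = 0.90). Among the 10 K8 tumors, Pck1 was the closest to Fasn (r = 0.98), Plin1 to Thrsp (r = 0.97), Pcx to Dgat2 (r = 0.98) and Plekhf1 to Srebf1 (r = 0.98). All these points share the arrays and their fat content, and K8 tumor 7 is among the 10.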

How the data were processed

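Total RNA of mammary tumors and control glands, taken up in Trizol, was amplified (NuGen Ovation Pico WTA, 100 ng) and put on single-colour Affymetrix arrays, per the labels' protocols. The deposited values are on a log2 scale by their range, 4.13 to 13.9 (array medians 6.34 to 6.43), though no label names the base. affy, with no version, appears in the submitters' processing notes. Background correction, summarization and build: not given in the sources used here. Only this value table was used. The number of arrays limits the precision.

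Probe sets with 1 symbol in the platform annotation (21640 of 34760; 1321 had several and 11799 none listed) were kept, 21553 of them matched a gene identifier of GRCm38.p6, and the brightest per symbol gave 19937 genes. Acaca and Me1 had 2 probe sets each (r = 1.00 and 0.98 with the one used). Testing was by limma 3.58.1 under R 4.3.3, with lmFit on 4 group means over all 25 arrays, eBayes, and Benjamini-Hochberg adjustment over all genes at 0.05. The adipocyte mean entered as a covariate for slopes and for contrasts at equal adipocyte mean. The labels do not say whether replicate numbers pair the samples, and the main fits used no block. Of 15 same-numbered pairs, 4 correlated above 0.1, and those of tumors ran from -0.15 to 0.51. The contrasts without a covariate and the adipocyte slope were tried on simulated data, and the contrasts at equal adipocyte mean were not. The smaller planted change of a contrast was 1 log2 unit. Of the smaller planted changes, 90% were recovered for Lgr5 minus K8 tumors and 86% for Lgr5 tumors minus glands. The shares were 78% for K8 tumors minus glands and 61% for the difference of contrasts. No share was worked out for the members alone. In K8 tumors minus glands as measured, the SE of the members ran from 0.26 for Srebf1 to 0.98 for Thrsp. The shares therefore do not tell how often a change of 1 log2 unit would be found in a given member. Alternatives were scaling, priors, gene filter, array weights, covariates, a block and leaving out arrays.

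The members, gene lists (192 of 207 listed genes measured) and tests were chosen with earlier results of these data known. Genes named beside the 9 members are their close paralogs, up to 4 per list, those of smallest adjusted p between tumors or for the adipocyte slope, and the 3 most correlated with a member. Promoters come from RefSeq, and figures were drawn with matplotlib 3.10.9.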

Additional observations from a re-analysis of the deposited data

Results flagged for a closer look

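K8 tumor 7 stood apart from the other K8 tumors in 3 of the 9 genes. Its gap to the next K8 tumor took up 0.486 of the group's whole range in Fasn, 0.578 in Acaca and 0.579 in Dgat2, each above Dixon's critical value for 10 samples. In all, 18 sets of 10 tumors were tested, and chance alone passes this value in about 5% of such sets. The same array had the highest adipocyte mean (10.91), brown adipocyte mean (9.17) and skeletal muscle mean (10.53) of the K8 tumors, and its Fasn value was 12.98.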

How the results depend on the processing

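Counts are of the 9 genes passing, and alternatives not named left them within 1.5 times. The share of all genes passing shifts with the setting too. For Lgr5 tumors minus Lgr5 glands at equal adipocyte mean it went from 0% to 18.8% without the 7 arrays. That share is not given for each setting, so a changed count alone is not a result about these 9 genes. For Lgr5 tumors minus K8 tumors the 8 calls fell to 0 with the adipocyte mean, with the adipocyte and luminal means, without the 5 fat-rich Lgr5 tumors and without the 7 doubted arrays (those 5, Lgr5 tumor 10 and K8 tumor 9), and ran from 7 to 8 with each array left out. For Lgr5 tumors minus Lgr5 glands the 1 call became 0 with the adipocyte mean, with both means, without the 5 or the 7 arrays, on the 2 groups alone, and with the replicate block (Dgat2 2.10, adjusted p = 0.0524; 1737 genes called), 2 without Lgr5 tumor 10 and K8 tumor 9, 5 with array weights, and 0 to 2 with 1 array left out. At equal adipocyte mean its 0 calls became 4 without the 7 arrays, and 2, 1 and 0 when Lgr5 gland 1, 2 or 3 was also left out. For K8 tumors minus K8 glands the 0 calls became 5 with the adipocyte mean or both means and 3 with array weights. At equal adipocyte mean the 5 became 0 with the squamous or milk mean and ran from 0 to 6 with 1 array left out. The sixth call was Dgat2, higher in K8 tumors without K8 tumor 9 (0.60, limma adjusted p = 0.00444). Dgat2 also passed as higher there with array weights (0.60), without Lgr5 tumor 10 and K8 tumor 9 (0.62), without the 7 arrays (0.61) and with 4 fat cell genes in the covariate (0.71, limma adjusted p = 0.0475). The 8 slopes became 5 in K8 tumors alone and 0 without K8 tumor 7, and stayed at 8 with any 1 array left out; with the replicate block Elovl6 (0.32, adjusted p = 0.132) and Me1 (0.26, adjusted p = 0.145) were lost. The 0 brown slopes became 1 with array weights and 1 without Lgr5 tumor 10 and K8 tumor 9. The 1 milk slope became 2 with array weights or quantile normalization, 0 with the replicate block (Thrsp 0.53), and 0 without the 5, the 7 or those 2 arrays, and ran from 0 to 2 with 1 array left out. The 0 luminal slopes became 3 with array weights and 1 without the 5, and ran from 0 to 2 with 1 array left out. The cause of these shifts was not tested. 

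Values that changed sign, none of them past the test after the change, were as follows. With the adipocyte mean, Lgr5 tumors minus glands gave Fasn -0.46, Acaca -0.73, Acly -0.74, Scd1 -0.27, Elovl6 -0.12, Thrsp -0.88, Srebf1 0.097 and Me1 -0.50, and K8 tumors minus glands gave Srebf1 0.017. There, Lgr5 minus K8 tumors gave Fasn -0.10, Acaca -0.17, Acly -0.17, Elovl6 -0.16, Dgat2 -0.062 and Me1 -0.069, and the difference of contrasts gave Elovl6 -0.43, Dgat2 -0.45, Srebf1 0.080 and Me1 -0.094. With the adipocyte and luminal means, Lgr5 tumors minus glands gave Fasn -0.44, Acaca -0.73, Acly -0.73, Scd1 -0.26, Elovl6 -0.13, Thrsp -0.84, Srebf1 0.10 and Me1 -0.51, and K8 tumors minus glands gave Srebf1 0.026. There, Lgr5 minus K8 tumors gave Fasn -0.13, Acaca -0.17, Acly -0.17, Elovl6 -0.13, Thrsp -0.062, Dgat2 -0.059 and Me1 -0.049, and the difference of contrasts gave Elovl6 -0.40, Dgat2 -0.44, Srebf1 0.073 and Me1 -0.065. Without the 5 arrays, Lgr5 tumors minus glands gave Acly -0.11, Srebf1 0.053 and Me1 -0.12, and the difference of contrasts gave Elovl6 -0.13 and Srebf1 0.086. There, K8 tumors minus glands at equal adipocyte mean gave Srebf1 -0.033. Without the 7 arrays, Lgr5 tumors minus glands gave Acly -0.16, Srebf1 0.16 and Me1 -0.068, and K8 tumors minus glands gave Srebf1 0.019. There, Lgr5 minus K8 tumors gave Srebf1 0.0071, and the difference of contrasts gave Elovl6 -0.085 and Srebf1 0.14. There, Lgr5 tumors minus glands at equal adipocyte mean gave Elovl6 0.0057, with Srebf1 at -0.084 when gland 1 was also left out and Elovl6 at 0.20 without gland 2 (where Srebf1, at 0.40, kept its sign). Without Lgr5 tumor 10 and K8 tumor 9, K8 tumors minus glands gave Srebf1 0.019, and Lgr5 tumors minus glands at equal adipocyte mean gave Elovl6 0.019. With the replicate block, K8 tumors minus glands gave Srebf1 0.0094, and Lgr5 tumors minus glands at equal adipocyte mean gave Dgat2 -0.13. In K8 tumors alone, the slope gave Srebf1 0.017. In K8 tumors without K8 tumor 7, the slope gave Srebf1 0.048. With 4 fat cell genes in the covariate, K8 tumors minus glands at equal adipocyte mean gave Srebf1 -0.0081. On the groups of the contrast alone, K8 tumors minus glands at equal adipocyte mean gave Srebf1 -0.049. With the squamous mean, Lgr5 tumors minus glands at equal adipocyte mean gave Dgat2 -0.26 and Srebf1 -0.21, and K8 tumors minus glands at equal adipocyte mean gave Elovl6 -0.27 and Srebf1 -0.41. With the milk mean, Lgr5 tumors minus glands at equal adipocyte mean gave Dgat2 -0.075. With array weights, Lgr5 tumors minus glands at equal adipocyte mean gave Elovl6 0.067. With 1 array left out, 15 values changed sign: Srebf1 in Lgr5 tumors minus glands ran from -0.45 to 0.13, Srebf1 in K8 tumors minus glands ran from -0.16 to 0.097, Srebf1 in the difference of contrasts ran from -0.42 to 0.17. Elovl6 in Lgr5 tumors minus glands at equal adipocyte mean ran from -0.31 to 0.098, Srebf1 in Lgr5 tumors minus glands at equal adipocyte mean ran from -0.19 to 0.30, and Srebf1 in K8 tumors minus glands at equal adipocyte mean ran from -0.15 to 0.19.

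The arrays hold no detection calls, so signal over background could not be set.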
